A study of Mus musculus with 2 samples.

Results

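The proteasome genes described here are the probe sets of a mouse Affymetrix array whose annotation gave exactly 1 gene symbol starting with Psma, Psmb, Psmc, Psmd, Psme, Psmf or Psmg. That rule found 85 of the 22690 probe sets on the array, which stand for 48 genes. A probe set is a group of short oligonucleotides that together read 1 transcript. Of the 5 immunoproteasome genes that the comparison names, Psmb8, Psmb9, Psmb10 and Psme1 were members. The array's probe set for Psme2 was annotated to Psme2b as well, so it was no member and is not described. The members were set against each other between the distal colon of wild-type FVB mice (the series design spells the strain TVB) and that of IL-9 transgenic mice, labelled Tg5. Each genotype was 1 array of RNA pooled from 4 mice, bred free of specific pathogens. The strain background of the transgenic mice, the promoter that drives the transgene, and the age and sex of the animals are not given in the sources used here.

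The proteasome is the barrel-shaped protease that degrades ubiquitin-tagged proteins in every cell. Its 20S core stacks rings of α subunits, which form the gate, on rings of β subunits, of which Psmb5, Psmb6 and Psmb7 encode the catalytic members. The 19S regulatory particle, made of Psmc ATPases and Psmd non-ATPase subunits, recognises, unfolds and feeds in the substrate. In leukocytes, and in other cells exposed to interferon-γ, new cores take up Psmb8 in place of Psmb5, Psmb9 in place of Psmb6 and Psmb10 in place of Psmb7. The resulting immunoproteasome cuts peptides suited to MHC class I, and Psme1 and Psme2 form the PA28 cap that opens it.

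The upstream sequences of the most different pair of genes, Psmb8 and Psmb9, are shown with that of Psmb5, the constitutive counterpart of Psmb8, taken from RefSeq promoter windows of GRCm38.p6. Psmb9 and the peptide transporter gene Tap1 face away from each other, and the 225 bases between their start sites are the whole of the Psmb9 sequence printed. The Psmb8 sequence covers chr17:34197945-34198194 on the plus strand, the Psmb9 sequence chr17:34187331-34187555 on the minus strand and the Psmb5 sequence chr14:54617996-54618245 on the minus strand. All are written 5′ to 3′ and end at the base before the start site. Capitals mark the motif matches described next.
Psmb8: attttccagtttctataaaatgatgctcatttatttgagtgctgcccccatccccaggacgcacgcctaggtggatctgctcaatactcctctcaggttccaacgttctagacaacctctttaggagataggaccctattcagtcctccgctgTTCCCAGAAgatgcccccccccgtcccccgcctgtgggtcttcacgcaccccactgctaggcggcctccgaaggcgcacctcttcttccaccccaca
Psmb9: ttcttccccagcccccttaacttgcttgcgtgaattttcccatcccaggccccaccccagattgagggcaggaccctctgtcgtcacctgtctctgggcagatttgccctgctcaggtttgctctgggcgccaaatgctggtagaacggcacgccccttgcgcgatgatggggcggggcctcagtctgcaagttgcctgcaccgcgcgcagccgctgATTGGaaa
Psmb5: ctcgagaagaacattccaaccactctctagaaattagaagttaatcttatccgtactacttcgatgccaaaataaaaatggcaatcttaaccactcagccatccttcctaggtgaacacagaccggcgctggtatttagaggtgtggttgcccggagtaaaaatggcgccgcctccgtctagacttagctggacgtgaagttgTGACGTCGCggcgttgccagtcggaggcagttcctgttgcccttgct

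The capitals in Psmb8 are a γ-interferon activation site (GAS, TTCNNNGAA), the general binding pattern of STAT factors, 97 to 89 bases before the start. Those in Psmb9 are a CCAAT box on the opposite strand, and those in Psmb5 a core antioxidant response element (TGACNNNGC), a pattern bound by NRF factors, which are known regulators of constitutive proteasome genes. Both strands of the 250 bases upstream of each start were searched, and a window was found for 38 of the 45 measured members that encode proteasome components. Shares over all are counted by window, with 32851 windows for 27025 genes. Members are counted by gene, and a gene counts if any of its windows matched, so the 2 are not in the same unit. The GAS pattern was in 7.02% of 32851 windows of this length, in 1 of 4 immunoproteasome genes (Psmb8) and in 1 of 34 others (Psmg1). The interferon response pattern, GAAA repeated after any 2 bases, was in 2.98% of all windows, in 0 of the 4 and in 3 of the 34 (Psmb3, Psmd4 and Psmd9). The κB pattern was in 7.25% of windows, in 0 of the 4 and in 6 of the 34. The antioxidant core was in 10.2% of windows, in 0 of the 4 and in 5 of the 34, among them Psmb5 and Psmb6. CCAAT was in 33.8% of windows, in 1 of the 4 and in 12 of the 34. The printed windows hold 1 match each, so no motif overlaps another there. These are counts of letters, and a window without a match says nothing about whether a factor binds.

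Array values are MAS5 intensities on a linear scale. Over all non-control probe sets, the wild-type and transgenic arrays had medians of 34.0 and 34.2. Intensities under a floor of 19.8, the 40th percentile, were raised to it, and a gene counts as measured if either array showed it above that floor. Each gene was read from its brightest probe set, and differences are log2 ratios of transgenic over wild type. Since each genotype has 1 array, the spread between mice is unknown and no difference below was tested. The disagreement between probe sets of the same gene gives a technical measure only: its pooled SD was 0.28 on the log2 scale over 2847 genes, and also 0.28 over the 16 proteasome genes that 2 or more such probe sets read on both arrays.

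Of the 48 genes 47 were measured. The exception was Psma8, a testis α subunit, at 1.54 in the wild-type pool and 1.05 in the transgenic pool. Psmc3ip and Psme3ip1 carry the names of proteasome genes but encode interacting proteins. Psmc3ip, a cofactor of meiotic recombination, had a log2 ratio of -0.10, and Psme3ip1, a partner of Psme3, had -0.02. These 2 genes were kept apart, which left 4 immunoproteasome genes and 41 others.

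Psmb8 and Psmb9 were more than 2-fold higher in the transgenic pool, while no other proteasome gene, read by its brightest probe set, reached 1.5-fold in either direction. Psmb9, the immune counterpart of the caspase-like subunit, went from 83.7 in the wild-type pool to 204 in the transgenic pool, a 2.43-fold difference. Psmb8, the immune counterpart of the chymotrypsin-like subunit, went from 126 to 290, a 2.30-fold difference. Their log2 ratios of 1.28 and 1.20 were the 29th and 38th highest among the 8346 measured genes of the array. Over those 8346 genes, 4.09% passed 1.5-fold and 0.767% passed 2-fold in the higher direction, and 2.85% and 0.611% did so in the lower direction. Of the 45 proteasome genes, 2 passed 2-fold higher and 0 passed 1.5-fold or 2-fold lower.

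The other pair of immunoproteasome genes differed less. Psmb10, the immune counterpart of the trypsin-like subunit, had 292 in the wild-type pool and 406 in the transgenic pool, which is 1.39-fold higher and a log2 ratio of 0.47. Psme1, the α subunit of the PA28 cap, had 487 and 586, which is 1.20-fold higher. Its log2 ratio of 0.27 was smaller than the pooled SD between probe sets of a gene. All 4 immunoproteasome genes were read by a single probe set each, so no second probe set was at hand to set beside these values.

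**Figure D1:**
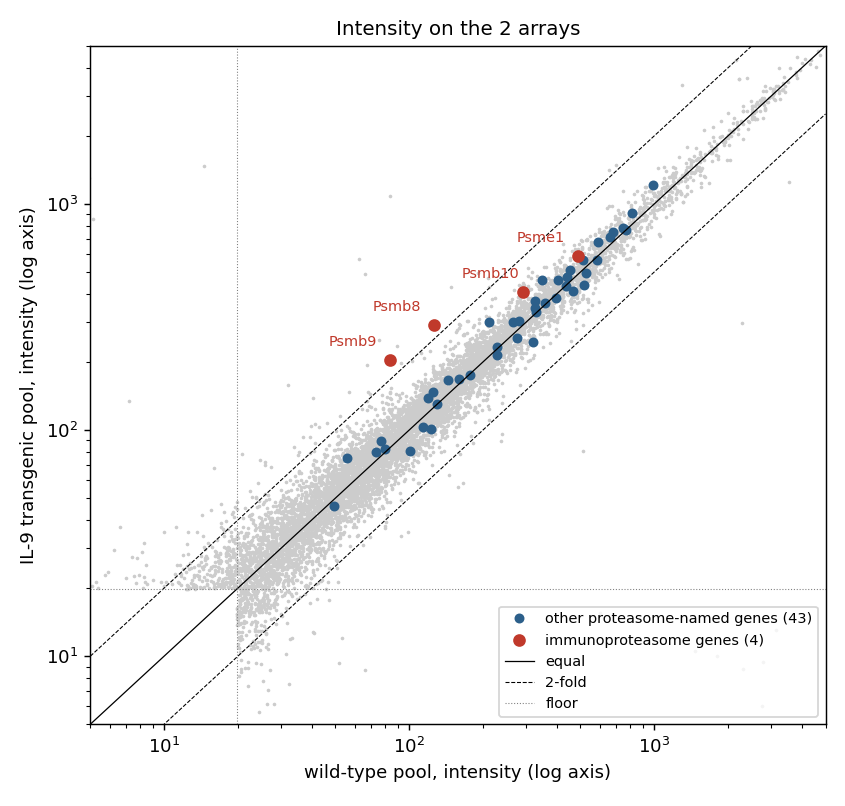
Intensity of measured genes in the wild-type pool (x) and the IL-9 transgenic pool (y), both on log axes, with 4 immunoproteasome genes in red, 43 other genes with proteasome names in blue and the measured genes that fall within the axes in grey; 1 array per pool, no error bars. Genes too dim on either array for the axes are not drawn. Psmb8 and Psmb9 lie above the upper 2-fold line, at 126 and 83.7 on the x axis, while the blue points lie within the 2-fold lines.

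The constitutive catalytic genes stayed close to equality. Psmb5, the chymotrypsin-like subunit, had 327 in wild type and 373 in transgenic colon, a log2 ratio of 0.19. Psmb6, the caspase-like subunit, had 464 and 414, a log2 ratio of -0.17. Psmb7, the trypsin-like subunit, had 768 and 767, a log2 ratio of -0.00 that was 0.01 under quantile normalization and -0.02 under loess. Each immune gene was thus higher relative to its counterpart. The log2 ratio of Psmb9 exceeded that of Psmb6 by 1.45, which is a 2.73-fold shift of the pair. For Psmb8 against Psmb5 the excess was 1.01, a 2.02-fold shift, and for Psmb10 against Psmb7 it was 0.48, a 1.39-fold shift. The order of the pairs is a description of 2 arrays. Levels of different genes cannot be compared on these arrays, so the shifts do not give the share of immune subunits in either colon.

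**Figure D2:**
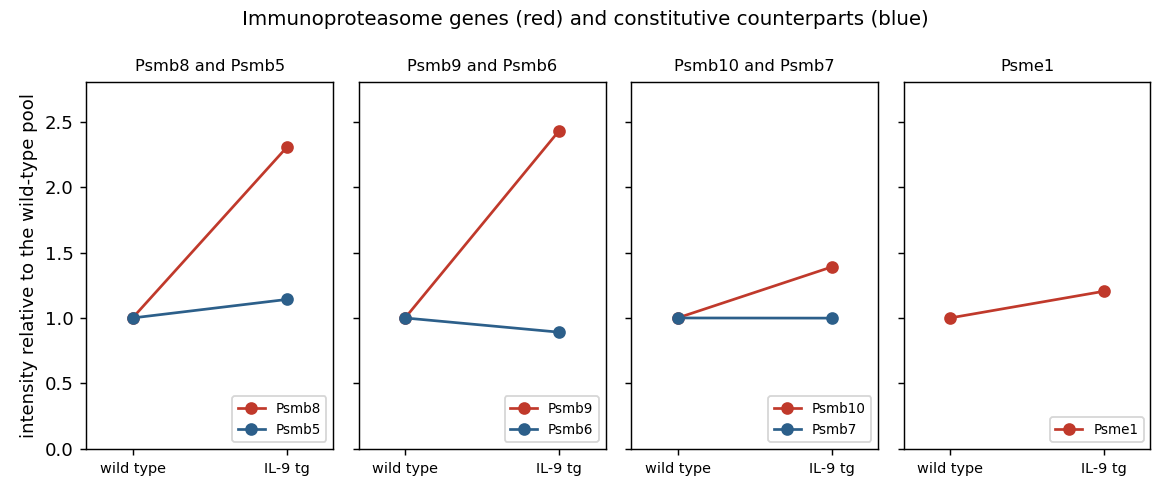
Intensity of each immunoproteasome gene (red) and its constitutive counterpart (blue) relative to the same gene's wild-type intensity, set to 1, in the wild-type and IL-9 transgenic (IL-9 tg) pools; 1 array per pool, no error bars. The red lines end at 2.30 for Psmb8, 2.43 for Psmb9, 1.39 for Psmb10 and 1.20 for Psme1, and the blue lines at 1.14 for Psmb5, 0.891 for Psmb6 and 0.999 for Psmb7.

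As a group the 4 immunoproteasome genes had a median log2 ratio of 0.84, which lies between Psmb10 and Psmb8 where no gene of the group is. The 41 other proteasome genes had a median of 0.08 and ran from -0.38 to 0.52, beside a median of 0.04 over all measured genes. The medians of the groups differed by 0.76. The ranges overlapped: 4 of the 41 others lay above Psme1 and 1 lay above Psmb10, and only Psmb8 and Psmb9 lay above all 41. Of the others, 28 had positive and 13 negative log2 ratios, against 56.0% positive among all measured genes. A log2 ratio under 0.25 in size was seen in 34 of the 41, against 63.3% of all measured genes, and one under 0.5 in 40 of the 41, against 89.5%.

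Among the structural β subunits, which complete the inner rings, all 4 genes had positive log2 ratios under the reported processing. Psmb3 had 349 in wild type and 463 in transgenic colon, a log2 ratio of 0.41, and its other probe set had 0.34. Psmb4 had 984 and 1217 by its brightest probe set, a log2 ratio of 0.31, but its second one had 521 and 340, with -0.62. That disagreement of 2 probe sets within 1 gene is wider than the difference between the group medians. Psmb1 and Psmb2 had 0.13 and 0.11. The mean over all probe sets was -0.13 for Psmb1 and -0.16 for Psmb4, so the common direction of this ring held only for the brightest probe sets. For Psmb1 that mean includes dim probe sets, at 26.9 and 20.6 in the wild-type pool and under the floor in the transgenic pool. Their ratios are bounds.

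The 7 genes of the α ring, which forms the gate of the core, spanned a narrow range. Their median log2 ratio was 0.15. The highest was Psma2, at 589 against 679, a log2 ratio of 0.21. The lowest was Psma1, at 583 and 566, with -0.04. Psma3, Psma4 and Psma5 had 0.16, 0.17 and 0.15, Psma6 had 0.06 and Psma7 -0.01. A dim probe set of Psma6, at 26.5 and 43.0, had 0.70, while its second brightest one had -0.15.

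The ATPases of the 19S particle, which unfold the substrate, had the widest range among the groups of constitutive genes. Psmc4 was the highest of the 41 others, at 211 in the wild-type pool and 302 in the transgenic pool, a log2 ratio of 0.52. Its other probe set, at 180 and 190, had 0.08. Psmc5 was the lowest of the 41, at 320 and 246, a log2 ratio of -0.38, and it had no further probe set. Psmc2 had -0.24, with -0.32 on its other probe set. Psmc1, Psmc3 and Psmc6 had 0.03, -0.05 and 0.01, and the second probe set of Psmc6 had -0.47. The median of the 6 ATPase genes was -0.02, so they did not share a direction.

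The 11 non-ATPase subunits, which bind ubiquitin chains, remove them and hold the particle together, had a median log2 ratio of 0.10. The highest was the scaffold gene Psmd3, with 119 in the wild-type pool and 139 in the transgenic pool, with 0.22. The lowest was the deubiquitinase gene Psmd14, at 525 and 496, with -0.08. Psmd12 had -0.08 as well, and the other 8 were between 0.03 for Psmd6 and 0.21 for Psmd13. The second probe set of Psmd6 had -0.33. Psmd11, a lid subunit, had 0.16, and the 3 others of its probe sets that both arrays read above the floor had 0.05 to 0.49.

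The remaining regulators and assembly factors went both ways. Psmf1, the PI31 inhibitor, had 76.8 in wild type and 89.8 in transgenic colon, a log2 ratio of 0.23. Its second brightest probe set had -0.40, and the next one had 0.21. The nuclear activator gene Psme3 had 73.2 and 80.3, a log2 ratio of 0.13, and its second probe set, at 52.2 and 43.5, had -0.26. The large activator gene Psme4 had -0.11. Unlike Psmf1 and Psme3, Psme4 gave like values on all 3 of its probe sets, from -0.15 to -0.11. Among the assembly chaperones, which build the rings and the base and then leave, the median was 0.01 over 7 genes. Psmd9 was the highest, at 55.8 and 75.4, with 0.43, and Psmg3 the lowest, at 101 and 81.0, with -0.32. Psmd5 had 0.23, Psmg4 0.05, Psmg1 0.01, Psmd10 -0.15 and Psmg2 -0.28.

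**Figure D3:**
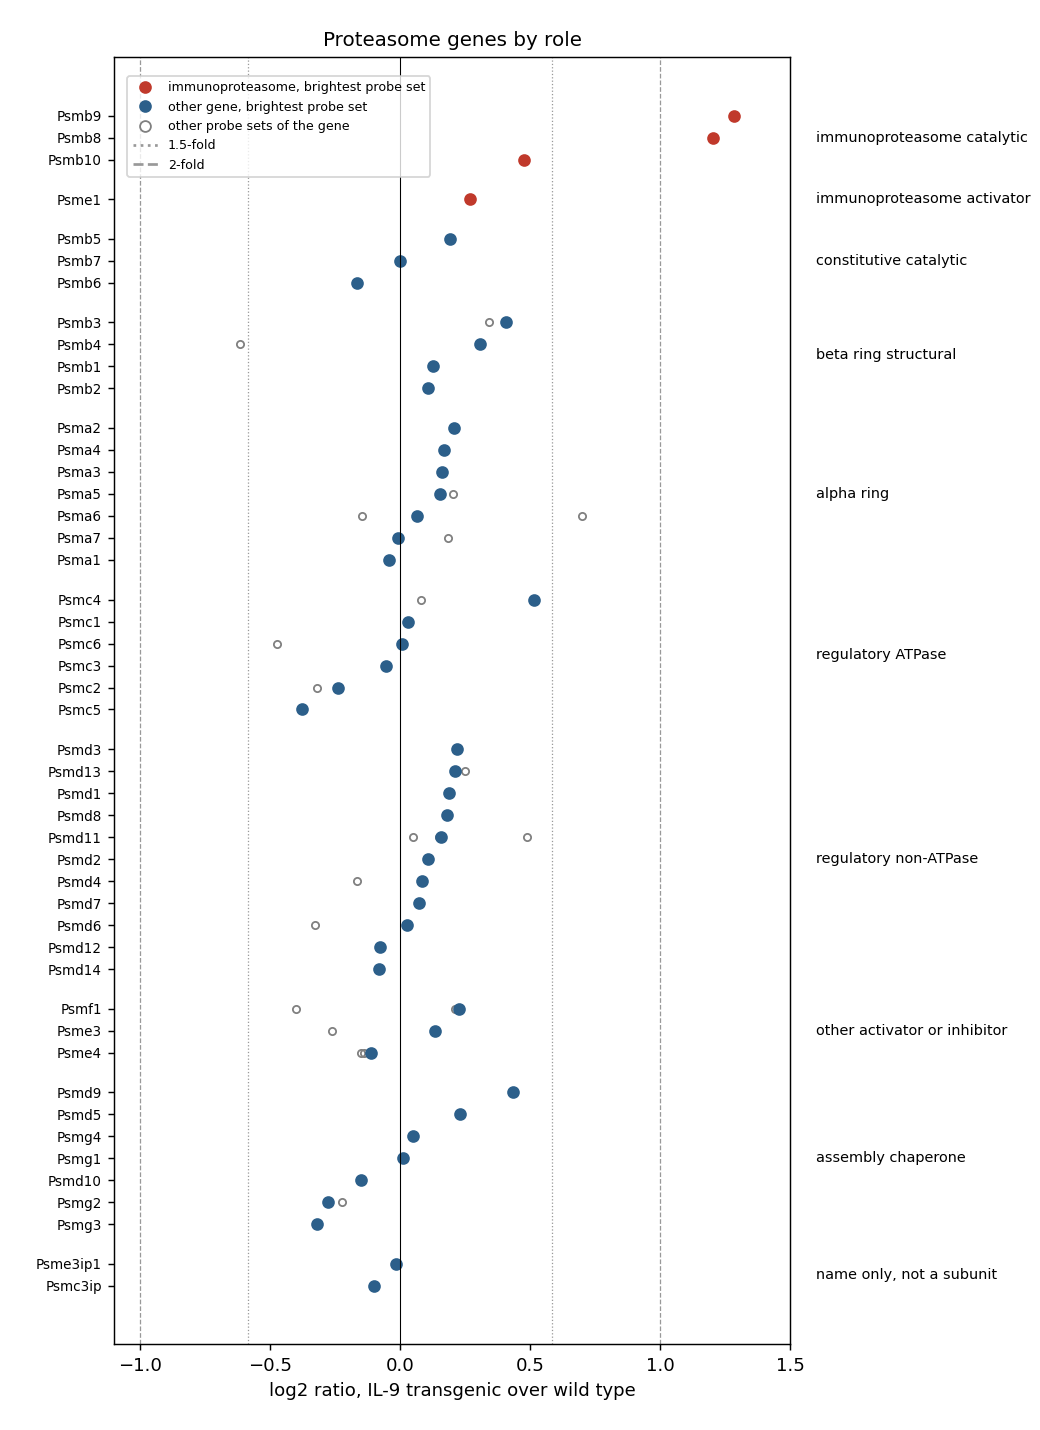
Log2 ratio of IL-9 transgenic over wild type (x) of 47 measured genes, grouped by role; filled points are the brightest probe set of each gene (immunoproteasome red, others blue), open points are its other probe sets that exceeded the floor on both arrays, and the vertical lines mark 1.5-fold (dotted) and 2-fold (dashed). Psmb9 at 1.28 and Psmb8 at 1.20 are the filled points beyond 1.5-fold, and open points of Psmb4 at -0.62 and Psma6 at 0.70 lie beyond it too.

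Counted by probe set, 72 of the 85 exceeded the floor on at least 1 array. Of these, 3 passed 1.5-fold higher (those of Psmb8 and Psmb9 and the dim one of Psma6), against 3.92% of 13070 probe sets on the array, and 1 passed 1.5-fold lower (Psmb4), against 3.68%. Of the 72, 44 had positive log2 ratios, against 53.6%. Another 12 probe sets of measured members were under the floor on both arrays and give no ratio.

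Genes that work with the proteasome were read from lists of partners and of the peptide loading pathway. In a list of 20 symbols of proteasome partners and ubiquitin genes, 12 were measured, with a median log2 ratio of 0.00 and 0 of 12 beyond 1.5-fold. Over all measured genes, 4.09% passed 1.5-fold higher and 2.85% lower, so 0 of 12 is near the general share. The unfoldase gene Vcp had 0.20, the deubiquitinase gene Usp14 0.19, and the shuttle factor genes Ubqln2 and Rad23b -0.14 each. Pomp, the maturation factor that the immune core also needs, had 382 in wild type and 383 in transgenic colon, a log2 ratio of 0.00. The class I peptide loading list, which takes over the peptides that the proteasome makes, had 11 measured genes, a median of 0.32 and 1 gene beyond 1.5-fold. That gene was Tap1, the neighbour of Psmb9, which had 19.0 in the wild-type pool, under the floor, and 42.5 in the transgenic pool, a difference of at least 2.15-fold. The heavy chain genes H2-K1 and H2-D1 had 0.42 and 0.34, and the aminopeptidase gene Erap1 had -0.38.

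Interferon signalling genes, which carry the known inducer of immune subunits, had 12 measured members of 17, a median log2 ratio of 0.12 and 0 of 12 beyond 1.5-fold. That count is near the share over all measured genes, which was 4.09% higher and 2.85% lower. Stat2 had 0.42, Irf8 0.39, Jak2 0.25 and Ifngr2 0.20. Ifng itself was below the floor on both arrays, with 4.97 in the wild-type pool and 0.67 in the transgenic pool. In a list of GTPase genes that interferon-γ induces, 7 of 9 measured genes passed 1.5-fold higher, with a median of 1.07. Gbp2 had 1.55, Gbp3 1.49, Ifi47 1.31 and Irgm2 1.10. Psmb8 and Psmb9 lay inside the range of this list, which ran from 0.33 to 1.55, and Psmb10 did too. The range is wide: it also holds Psmc4 (0.52), Psmd9 (0.43) and Psmb3 (0.41), which are no immunoproteasome genes, while Psme1 (0.27) lay below it. The part of interferon in the values of the members was not tested.

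Leukocyte markers were higher in the same pool as Psmb8 and Psmb9. All 8 pan-leukocyte genes had positive log2 ratios and 7 were at least 1.5-fold higher, with a median of 0.88. Among all measured genes, 56.0% had positive log2 ratios and 4.09% were at least 1.5-fold higher. Coro1a had 1.40, Rac2 1.17, Cd53 0.98 and Cd52 0.88. The summed intensity of this list was 783 in the wild-type pool and 1486 in the transgenic pool, which is 1.90-fold higher. Of 6 B cell markers 4 were measured and all 4 were at least 1.5-fold higher, with Cd79a at 1.92 and Cd22 at 1.44, and their summed intensity was 2.48-fold higher (117 to 291). Pax5 was below the floor on both arrays. The 7 measured MHC class II genes had a median of 1.10 and a summed intensity 2.20-fold higher, with H2-DMa at 1.78 and H2-Ab1 at 1.37. The part of these cells in the values of Psmb8 and Psmb9 was not tested, and more cells of a type and more RNA per cell cannot be told apart in bulk RNA.

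Markers of further cell types were read in the same way. In the T cell list 3 of 6 genes were measured, each under the floor in the wild-type pool, with log2 ratios of at least 0.08 to at least 0.46; Cd4 and Cd8a were under it on both. These ratios are bounds, and the summed intensity of the 3 genes, under the floor in the wild-type pool, was 34.6 and 71.3. The macrophage list had 4 measured genes and a median of 0.23, with Itgax at least 2.13-fold higher and Adgre1 at -0.43; Itgam was below the floor. The mast cell list, which includes chymase genes of mucosal mast cells, had 6 of 7 genes measured, 5 of them at least 1.5-fold higher, and summed intensities of 176 and 3268. Mcpt1, Mcpt2, Mcpt4 and Fcer1a were under the floor in the wild-type pool, so their ratios are bounds. Mcpt1 (1297) and Mcpt2 (1472) made up most of the transgenic sum, and Kit (102) most of the wild-type sum. Colon epithelial genes had a median of -0.05 over 8 measured genes, with Cdx2 at 0.31 and Car1 at -0.26, and a summed intensity of 13398 and 12442. The wild-type pool also held exocrine pancreas transcripts. All 12 measured acinar genes passed 2-fold lower in the transgenic pool, against 0.611% of all measured genes, with summed intensities of 30795 against 1682. Cela1 (1246), Clps (296) and Pnliprp2 (80.6) stayed above the floor in the transgenic pool. The other acinar genes were under it there, so their ratios are bounds. When these acinar genes were left out of the scaling, Psmb9 had a log2 ratio of 1.27 and Psmb8 1.19. That scaling shifts all genes above the floor alike and takes no pancreatic RNA out of the values. The part of pancreatic RNA in the values of the members was not tested.

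**Figure D4:**
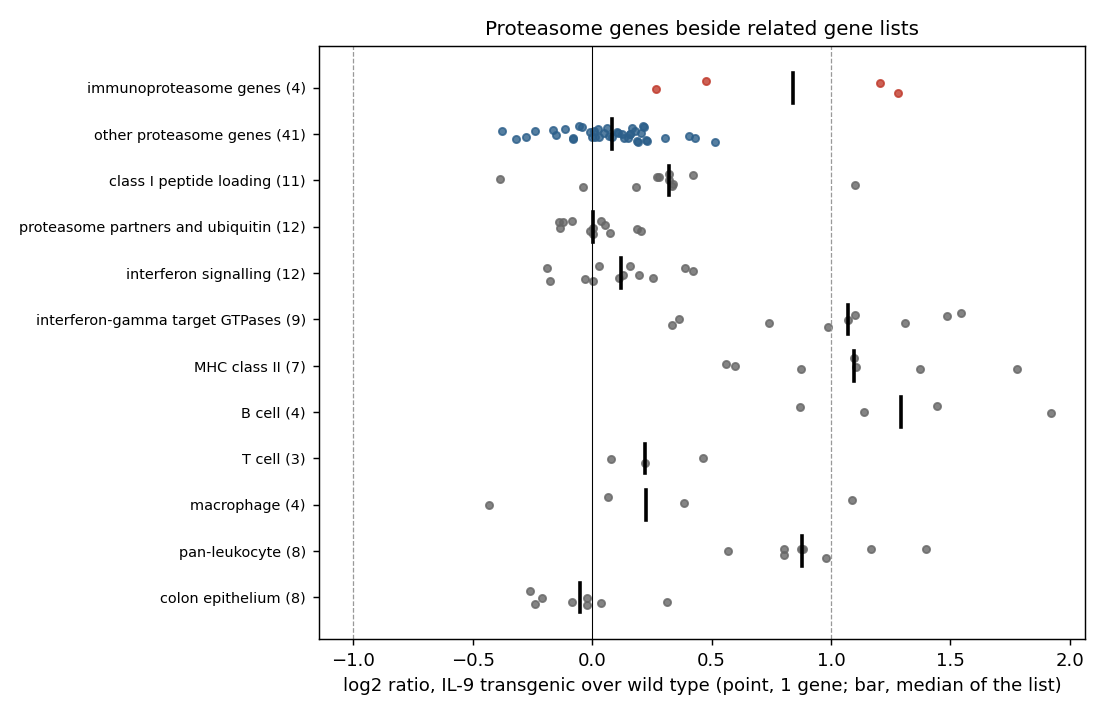
Log2 ratio of IL-9 transgenic over wild type (x) of each measured gene (points, with random vertical offset) in the immunoproteasome group, the other proteasome genes and 10 related lists, with the number of genes in brackets and the median as a black bar; the dashed lines mark 2-fold. Medians are 0.84 and 0.08 for the groups of proteasome genes, 1.07 for GTPase genes induced by interferon-γ, 0.88 for pan-leukocyte genes and 0.00 for proteasome partners; mast cell and pancreatic acinar lists are not drawn because their range is far wider.

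Few of the other settings could move the values of the immunoproteasome genes. Each of these genes has 1 probe set and lay above every floor tried. Other floors and other ways to combine probe sets therefore could not change its value. Scaling by the median or without acinar genes shifts all genes above the floor alike. Over all settings the immunoproteasome median ran from 0.80, with loess, to 0.84 as reported. With quantile normalization it was 0.81. The difference from the other proteasome genes ran from 0.75 to 0.81. Positive log2 ratios among the 41 others numbered 28 as reported and 24 under loess. A second brightest probe set above the floor on at least 1 array was at hand for 18 of these genes. With it, 7 were positive and 11 negative, so the balance of signs turned. Those of Psmb1 and Psmd7 were under the floor on 1 array, so their ratios are bounds.

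**Figure D5:**
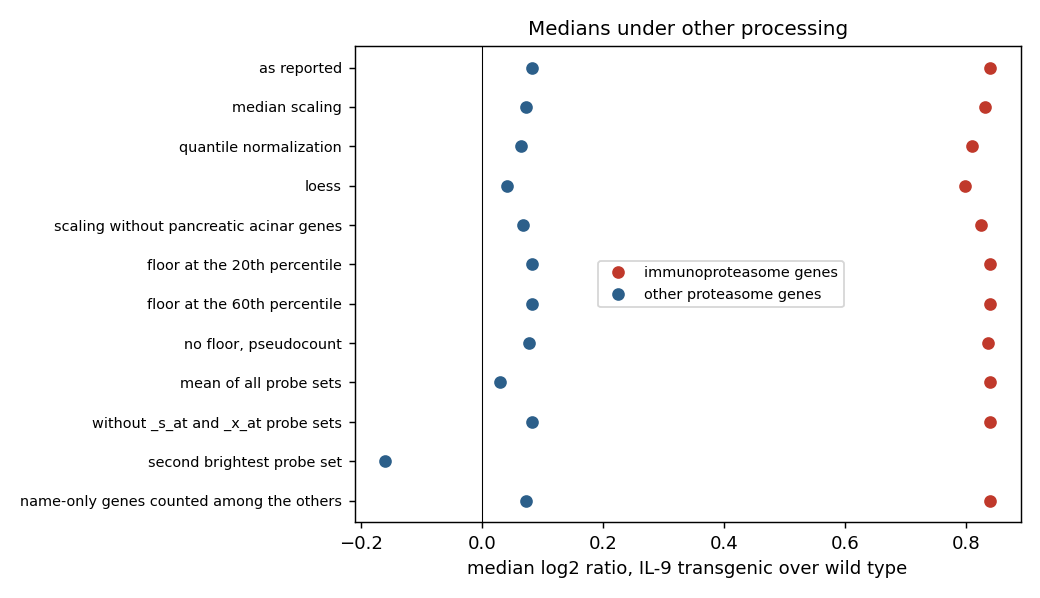
Median log2 ratio (x) of the immunoproteasome genes (red) and of the other proteasome genes (blue) as reported and under 11 other settings (y). The red medians lie between 0.80 and 0.84 and the blue ones between -0.16 and 0.08; the setting with the second brightest probe set has no red point because each immunoproteasome gene has 1 probe set.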

How the data were processed

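Total RNA (5 µg per pool) was labelled and hybridised by the authors, who deposited 1 linear intensity per probe set and array, which MAS5 produced, per the submitters' processing notes (version not given in the sources used here). Of 22626 non-control probe sets, the platform annotation gave 1 symbol to 20380, several to 691 and none to 1555. All 48 member symbols were found in the RefSeq table of GRCm38.p6, used for names and gene order. Floor, ratio and calls are given in the report; no further scaling was applied. Calculations used Python 3.11.15, pandas 2.3.3 and statsmodels 0.14.6, and were tested on simulated data. Named genes were the immunoproteasome genes and their counterparts, the highest and lowest member of each role, members beyond 1.5-fold or below the floor, members whose probe sets disagreed in sign by a log2 ratio of at least 0.3, and up to 4 genes of each list; other members are named to account for all. Outside this rule, Pomp, Ifng and list genes under the floor were chosen after their values were seen. The members, lists and thresholds were chosen with earlier results of these data known. Precision is limited by the number of arrays. Alternatives were median, quantile, loess (span 0.3) and acinar-free scaling, floors at the 20th and 60th percentile, a pseudocount of 0.735 in place of the floor, and other choices of probe set.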

Additional observations from a re-analysis of the deposited data

How the results depend on the processing

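No paired analysis was possible because each group is a single array and the labels give no replicate numbers. For the same reason no array could be left out. A value was counted as moved when it shifted by more than 0.28, the pooled SD between probe sets of a gene, and a count when it shifted by more than 1.5 times. That SD belongs to single genes and is too wide to judge a median over many, so medians are given by their range: 0.80 to 0.84 for the immunoproteasome genes, -0.16 to 0.08 for the others and 0.75 to 0.81 for the difference. The differences within the catalytic pairs ran from 1.01 to 1.02 (Psmb8 and Psmb5), 1.43 to 1.45 (Psmb9 and Psmb6) and 0.42 to 0.48 (Psmb10 and Psmb7). Most settings could not change these differences. Each gene of the pairs has 1 probe set above every floor tried, and scaling by the median or without acinar genes cancels in a difference. Only quantile normalization, loess and the pseudocount could move them. The second brightest probe set has no value for the immunoproteasome genes. With it, the median of the others was -0.16 over 18 genes, of opposite sign, with 7 positive and 11 negative, and proteasome genes numbered 0 at 1.5-fold higher, 0 at 2-fold higher and 1 at 1.5-fold lower (Psmb4). Of 440 values of single members under alternatives 11 moved, in 9 genes, all through the choice of probe set. The counts over all genes were 341 (1.5-fold higher), 238 (1.5-fold lower), 64 (2-fold higher) and 51 (2-fold lower) as reported. In that order they were 766, 838, 202 and 258 when the floor was the 20th percentile, 148, 95, 29 and 27 when it was the 60th, 1320, 1496, 655 and 800 without a floor, and 121, 137, 23 and 23 with the second brightest probe set, which tests 3132 genes. Counting Psmc3ip and Psme3ip1 among the others, an alternative chosen after seeing the data, left the difference of medians at 0.77.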

Other observations

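The neighbours of the immunoproteasome genes in the RefSeq gene order were looked at after the values of the members were seen. Psmb9 and Psmb8 sit with Tap1 and Tap2 among the MHC class II genes of chromosome 17. In the block of 13 protein-coding genes from H2-Oa to H2-Eb1, which holds 5 genes on either side of these 2, 11 were measured and 8 were at least 1.5-fold higher in the transgenic pool. Among these 8, H2-Oa had 19.9 in the wild-type pool, just above the floor, and Tap1 was under the floor there. The measured genes that did not reach 1.5-fold were Brd2, a chromatin reader gene with a log2 ratio of 0.09, Tap2 with 0.18 and H2-Eb1 with 0.56. Tap2 (69.3 to 78.7) thus lay between Psmb8 and the class II genes H2-Ab1 (1.37) and H2-Aa (1.10) with a ratio near 1. The block holds genes of the class II list described above, and it was drawn around Psmb8 and Psmb9 because they were high, so its count is no separate evidence; without these 2 genes it is 6 of 9.

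Psmb10 lies on chromosome 8 next to Ctrl, which encodes a chymotrypsin-like enzyme of the exocrine pancreas. Ctrl went from 2297 in the wild-type pool to 8.75 in the transgenic pool, at least 116-fold lower, while Psmb10 was 1.39-fold higher. Of the other measured genes within 5 places, Edc4 had a log2 ratio of 0.13 and Slc12a4 -0.05. Psme1 lies on chromosome 14 near Irf9, a subunit of the interferon-stimulated transcription complex, which had -0.03. The other measured genes near Psme1 were Pck2 at 0.14, Dcaf11 at 0.11 and Emc9 at 0.50.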
